A study of Mus musculus with 7 samples.

Results

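The genes described here are those of reelin signaling and neuronal migration: *Dcx*, *Dclk1*, *Dab1*, *Reln*, *Vldlr*, *Lrp8*, *Cdk5*, *Cdk5r1*, *Pafah1b1* and *Rnd2*, 10 of the 38124 genes in the count table. They were listed by name for their known function, with earlier results of these data known, and all 10 were found by symbol and had enough reads to be tested. RNA-Seq had been performed on cells of embryonic mouse neocortex that carry a control construct or a construct for conditional Sox9 expression. The comparison asks how the mRNAs of migration genes differ between these 2 groups of cells.

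All 7 libraries came from heterozygous Tis21-CreERT2 embryos, in which exon 1 of *Btg2* (also called Tis21) is replaced by a tamoxifen-activated Cre recombinase, so control embryos also carry the allele and received tamoxifen. At E13.5 the neocortex was electroporated in utero with 1 of the constructs, and cells were collected 48 hr later, at E15.5. Both constructs use a general promoter (pCAGGS) before a floxed membrane GFP, and Cre excision in basal progenitor-generating apical radial glia and their progeny starts expression of nuclear RFP alone (control construct) or of Sox9 together with nuclear RFP (conditional Sox9 expression construct). High RFP cells were isolated by FACS. The sorted cells were labelled as neural progenitors, and nothing in the sort removes the neurons they had produced. There were 3 control libraries, numbered 1, 2 and 4 in the titles, and 4 libraries labelled Sox9, numbered 1 to 4. The methods describe cortices of several embryos and mothers pooled for each sort, whereas the figure legends give single neocortices, and p-values measure the spread between these libraries.

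The control libraries held 10465562 to 12907778 counts on genes and those labelled Sox9 held 4429704 to 10520214. The TMM scaling factors were 0.893 to 0.941 and 1.01 to 1.10, respectively, so depth and scaling differed with the label. *Sox9* mRNA itself showed no rise with the label: its level was 34.6 to 89.2 CPM (read counts relative to the TMM-scaled library) in control libraries and 31.0 to 50.8 CPM in those labelled Sox9 (log2 fold change -0.68, adjusted p = 0.0493), and the counts do not separate construct from endogenous transcripts. The groups are therefore named by their labels throughout. The 10 markers listed for cortical neurons summed to between 14151 and 17862 CPM in control libraries and between 13170 and 15296 CPM in those labelled Sox9. The 6 markers of intermediate progenitors summed to 213 to 246 CPM and 128 to 159 CPM, respectively. Markers of both neurons and progenitors were thus present in every library labelled as progenitors. The labels name no batch.

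Reelin, encoded by *Reln*, is a large secreted glycoprotein that in the embryonic cortex comes mainly from Cajal-Retzius cells near the pial surface. It binds the receptors VLDLR and ApoER2 (encoded by *Vldlr* and *Lrp8*) on migrating neurons, which leads to tyrosine phosphorylation of the adaptor DAB1 inside the cell. Newborn projection neurons pass through a multipolar stage, become bipolar and migrate along radial glial fibres, a course that also needs the microtubule proteins doublecortin and LIS1 (encoded by *Pafah1b1*), the kinase CDK5 with its activator p35 (encoded by *Cdk5r1*), and the small GTPase RND2. Loss of reelin, of DAB1 or of both receptors inverts the cortical layers, and mutations in human *DCX* or *PAFAH1B1* cause lissencephaly.

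SOX proteins bind DNA with a core resembling ACAATG or ACAAAG, and the sequences just before transcription start sites are shown here because the 2 groups of libraries carry labels of a SOX factor. RefSeq (GRCm38.p6) windows were matched by symbol for 7 of the 10 genes, 13 windows in all, with *Cdk5*, *Cdk5r1* and *Rnd2* unmatched. The 250 bases upstream of 1 start site each are printed 5′ to 3′ on the gene's strand for the ligand *Reln* (chr5:22344706-22344955, minus strand), the receptor *Vldlr* (chr19:27216234-27216483, plus strand) and the kinase *Dclk1* (chr3:55242114-55242363, plus strand), with matches to ACAATG or ACAAAG on either strand in capitals.
Reln: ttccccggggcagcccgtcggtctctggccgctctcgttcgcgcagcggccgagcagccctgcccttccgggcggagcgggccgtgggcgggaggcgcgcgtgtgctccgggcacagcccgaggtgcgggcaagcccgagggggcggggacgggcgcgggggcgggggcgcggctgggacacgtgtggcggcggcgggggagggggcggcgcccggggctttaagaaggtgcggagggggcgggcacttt
Vldlr: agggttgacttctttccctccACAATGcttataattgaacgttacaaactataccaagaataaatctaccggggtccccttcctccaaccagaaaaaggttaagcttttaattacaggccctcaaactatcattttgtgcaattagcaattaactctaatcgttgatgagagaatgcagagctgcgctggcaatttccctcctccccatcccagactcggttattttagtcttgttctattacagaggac
Dclk1: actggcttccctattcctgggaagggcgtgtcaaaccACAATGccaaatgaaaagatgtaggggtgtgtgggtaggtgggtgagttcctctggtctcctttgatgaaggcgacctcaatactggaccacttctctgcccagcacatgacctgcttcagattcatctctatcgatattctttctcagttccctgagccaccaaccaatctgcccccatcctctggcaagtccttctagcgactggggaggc
The *Reln* window held neither motif, and the windows printed for *Vldlr* and *Dclk1* each held 1 ACAATG. Over all 32851 upstream windows of this length, 10.7% held ACAATG and 16.5% held ACAAAG on either strand. The letters differ in another way, since the *Reln* window had 37 CG dinucleotides against a median of 6, more than 97.8% of windows, whereas the *Vldlr* and *Dclk1* windows had 5 and 4. Among the windows not printed, the second of *Vldlr* had 18 CG dinucleotides, more than 78.3% of windows, and held neither motif, and the second of *Dclk1* held neither motif. Of the others, 1 of 3 *Lrp8* windows held ACAATG, another *Lrp8* window held ACAAAG at 2 positions, 1 of 2 *Dcx* windows held ACAAAG, and the windows of *Dab1* and *Pafah1b1* held neither. A match is a description of the sequence only.

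Of the 10 migration genes, *Reln* rose and *Rnd2* fell in the libraries labelled Sox9, and the other 8 did not pass the test (edgeR's quasi-likelihood test, Benjamini-Hochberg adjusted over 16522 genes, threshold 0.01). Over all genes tested, 11.3% were called higher and 3.43% were called lower. *Reln* was the single gene of the 10 that was higher in every library labelled Sox9 than in any control library, where 22.9% of all genes were. *Lrp8* and *Rnd2* were lower in all of them, where 16.4% of all genes were. A count of 1 gene in 10 is near the background for higher calls. With cyclic loess normalization, which removes a trend of fold change with expression level, and limma-trend as the test, *Reln* had a log2 fold change of 1.17 in place of 1.32 and *Rnd2* of -0.62 in place of -0.82, and neither was called. Over all genes 363 were then called higher and 284 lower in place of 1862 and 567. With limma-trend on TMM-scaled values, an alternative added after the data were seen, both were called (log2 fold changes 1.27 and -0.86, adjusted p = 0.00540 and 0.00277), as were 2018 genes higher and 535 lower.

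**Figure D1:**
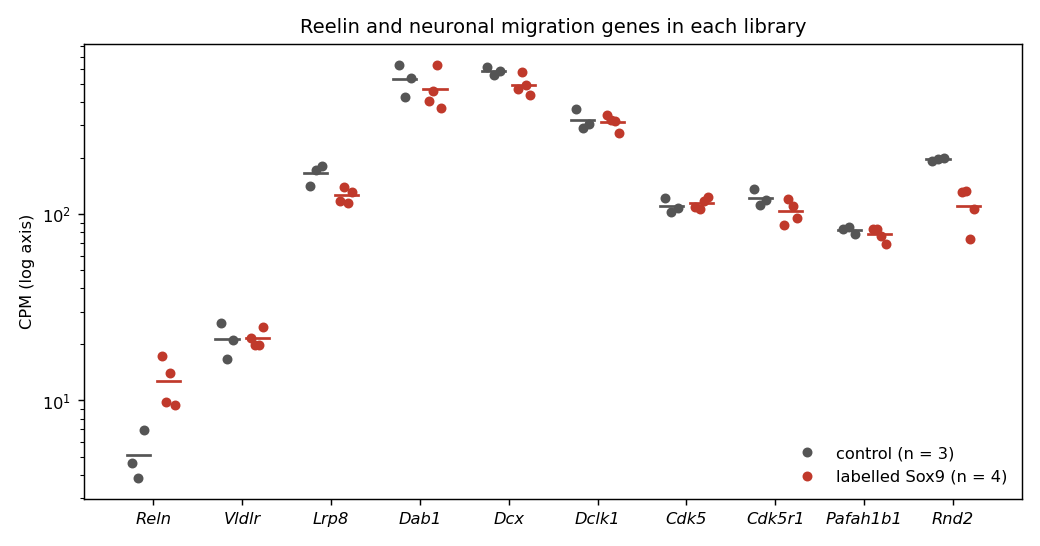
Level of each of the 10 genes in every library. The vertical axis gives CPM on a log scale, points are libraries (grey, 3 control; red, 4 labelled Sox9) and bars are group means. The *Reln* points of the groups are separate, with 9.44 CPM as the lowest red and 6.92 CPM as the highest grey point, and the *Rnd2* points are separate in the other direction.

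*Reln* (ENSMUSG00000042453, chr5:21884454-22344702, minus strand, mm10) was the least abundant of the 10. Its raw counts were 48, 44 and 68 in control libraries 1, 2 and 4, and 126, 104, 126 and 45 in libraries labelled Sox9 1 to 4. In CPM these are 4.59, 3.82 and 6.92 against 17.3, 9.83, 14.1 and 9.44. The groups did not overlap, and the spread was wide within both of them. The control mean of 5.11 ± 1.61 CPM (SD, n = 3) compares with 12.7 ± 3.74 CPM (SD, n = 4) under the Sox9 label, a 2.49-fold higher level with a log2 fold change of 1.32 (SE 0.30, 95% interval 0.68 to 1.95, adjusted p = 0.00541). The call was lost when control 1, control 2, Sox9 1 or Sox9 3 was left out, with log2 fold changes of 1.23, 1.138, 1.16 and 1.29 and adjusted p of 0.0180, 0.0248, 0.0167 and 0.0169. It was also lost with the replicate number of the titles as a block (1.25, adjusted p = 0.0280) and with cyclic loess and limma-trend (1.17, adjusted p = 0.0167).

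*Reln* belongs to the genes with few reads, many of which were higher in the libraries labelled Sox9. Among the 3818 genes with an average log2 CPM of 2 to 4, as for *Reln*, 13.0% were called higher and the median log2 fold change was 0.07, and 87.0% of them had a lower log2 fold change than *Reln*. Genes of olfactory, vomeronasal, taste and trace amine receptors, which the neocortex is not known for, give a second reference. Pooled over 1374 such genes, the level was 0.0278 ± 0.00438 CPM per kilobase of exon over the 3 control libraries (SD) and 0.0839 ± 0.0121 over the 4 labelled Sox9 (SD), 3.02-fold higher. On the same scale *Reln* stood 6.22 to 9.91 times above these receptor genes in control libraries and 4.94 to 8.13 times above them in those labelled Sox9, and these ranges overlapped. The part of this shift in the *Reln* difference was not tested.

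**Figure D2:**
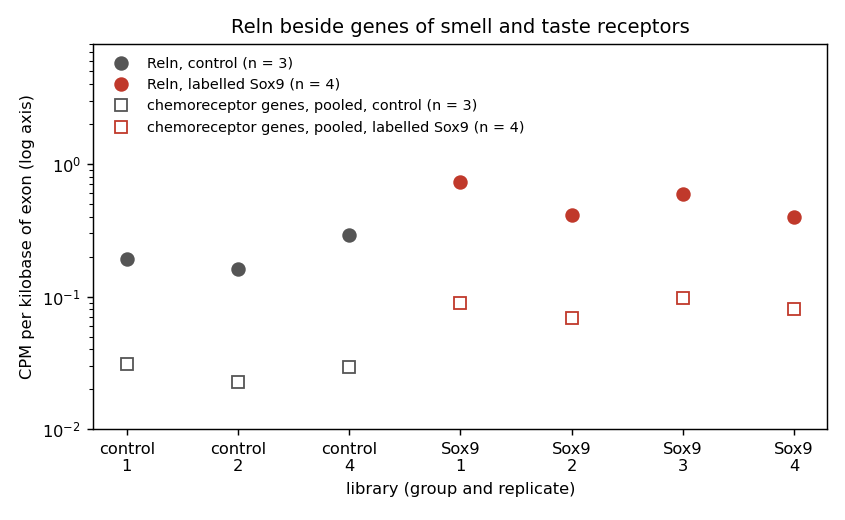
Level of *Reln* (filled circles) and pooled level of 1374 chemoreceptor genes (open squares) in each library, in CPM per kilobase of exon on a log axis. Grey marks the 3 control libraries and red the 4 labelled Sox9. Both sets of points are higher in the red libraries, with *Reln* at least 4.94 times above the squares in every library.

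Markers of other reelin-producing cells were also followed. Of 9 Cajal-Retzius markers, 5 had enough reads to be tested and none of these 5 was called, all 5 having log2 fold changes above 0, as had 83.6% of the 5694 genes at their expression level (average log2 CPM under 2), of which 22.7% were called higher. Their sum over the 9 genes was 6.43 to 8.44 CPM in control libraries and 10.4 to 18.9 CPM in those labelled Sox9. *Ebf2* came nearest to the threshold, with 1.43 CPM in control and 4.00 CPM in libraries labelled Sox9 (log2 fold change 1.49, adjusted p = 0.0119). *Trp73*, a defining Cajal-Retzius gene, was at 0.669 and 0.871 CPM, and *Ndnf* had 0 counts in all 3 control libraries and at most 7 in those labelled Sox9. Of 9 markers of GABAergic interneurons, which also express reelin, 4 were tested, *Npy* was called higher and the other 3 were not called. *Npy* was at 1.28 ± 0.356 and 8.95 ± 7.68 CPM (SD, n = 3 and 4) with overlapping groups, at a level (average log2 CPM 2 to 4) where 13.0% of genes were called higher. The sum of the 9, *Npy* included, was 6.20 to 6.43 CPM in control libraries and 9.50 to 33.9 CPM in those labelled Sox9. The sort took High RFP cells, electroporated in the neocortex and recombined in the Tis21 lineage. How fully it removed cells of other origin was not tested. The part of Cajal-Retzius cells and interneurons in the *Reln* difference was not tested, and in bulk RNA more cells of a type and more RNA per cell cannot be told apart. An antisense gene whose exons overlap those of *Reln*, Gm10475, had at most 4 counts in any library.

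Neither reelin receptor was called. *Lrp8* (chr4:107802261-107876840), encoding ApoER2, was at 142, 173 and 182 CPM in control libraries 1, 2 and 4 and at 117, 141, 115 and 132 CPM in libraries labelled Sox9 1 to 4. The groups did not overlap, by a margin of little more than 1 CPM. Means were 166 ± 20.9 and 126 ± 12.0 CPM (SD, n = 3 and 4), and the log2 fold change of -0.39 (SE 0.12, 95% interval -0.66 to -0.13, adjusted p = 0.0272) missed the threshold of 0.01. DESeq2 called *Lrp8* lower, with a log2 fold change of -0.48 and an adjusted p of 0.00875, whereas cyclic loess with limma-trend gave -0.14 (adjusted p = 0.479) and a filter of 10 or more counts in every library -0.26 (adjusted p = 0.198). Among genes of its expression level the median was -0.25, and 21.4% of them had a lower log2 fold change.

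*Vldlr* (chr19:27216484-27254231), encoding the very low density lipoprotein receptor, was at 26.2, 16.7 and 21.2 CPM in control libraries and at 21.6, 19.9, 19.9 and 24.7 CPM in those labelled Sox9. All values labelled Sox9 lay within the control range. The means were 21.3 ± 4.76 and 21.5 ± 2.28 CPM, with a log2 fold change of 0.0081 (SE 0.19, adjusted p = 0.979). The interval, -0.40 to 0.42, leaves room for a difference in either direction. *Vldlr* is expressed by endothelial cells too, and of 6 endothelial markers 5 were tested and *Kdr* and *Flt1* were called higher, with sums over the 6 genes of 3.15 to 11.1 CPM in control libraries and 13.6 to 36.8 CPM in those labelled Sox9. At the levels of these markers, 22.7% of all genes (average log2 CPM under 2) and 13.0% (2 to 4) were called higher. How fully the High RFP sort removed endothelial cells, and their part in the *Vldlr* level, were not tested. The log2 ratio of *Vldlr* to *Lrp8* counts within a library, which does not depend on library scaling, was -2.97 ± 0.48 in control and -2.55 ± 0.19 in libraries labelled Sox9, a difference of 0.42 with overlapping groups (exact permutation test over 35 splits, two-sided, p = 0.229, adjusted p = 0.229 over 3 ratios). The difference was 0.69 without control 1 and 0.22 without control 2. The smallest p this design allows is 0.0286.

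*Dab1* (chr4:103619359-104744844), whose product couples the receptors to the cytoskeleton, was at 636, 426 and 540.0 CPM in control libraries and at 408, 462, 636 and 371 CPM in those labelled Sox9. Control 1 and Sox9 3 stood at the same level, and the groups overlapped. The means of 534 ± 105 and 469 ± 118 CPM gave a log2 fold change of -0.19 (SE 0.17, 95% interval -0.56 to 0.18, adjusted p = 0.438). Leaving out 1 library moved it between -0.34 (without Sox9 3) and -0.028 (without Sox9 4), with -0.058 without control 1. The standard error was larger than those of the other abundant genes, *Dcx* and *Dclk1*, at 0.12 each.

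*Dcx* (chrX:143855842-143933311), encoding doublecortin, a microtubule-binding protein of migrating neurons, was at 618, 559.9 and 590.5 CPM in control libraries and at 468, 580.5, 494 and 438 CPM in those labelled Sox9. Sox9 2 lay inside the control range and the other three libraries below it. The means were 589.6 ± 29.2 and 495 ± 61.3 CPM, with a log2 fold change of -0.25 (SE 0.12, 95% interval -0.50 to -0.0047, adjusted p = 0.107). This was close to the median of -0.28 over the 677 genes with an average log2 CPM of 8 or more, of which 57.6% had a lower log2 fold change. The *Dcx* value became -0.14 without Sox9 4, -0.11 at 10 or more counts in every library and 0.0097 with cyclic loess and limma-trend. The 10 cortical neuron markers, among which none was called, had a median log2 fold change of -0.13.

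*Dclk1* (chr3:55242364-55539068), encoding a doublecortin-like kinase that acts with doublecortin in migration and axon growth, was at 366, 289 and 305 CPM in control libraries and at 341, 322, 318 and 274 CPM in those labelled Sox9. The groups overlapped almost fully. The means were 320.3 ± 40.3 and 314 ± 28.4 CPM, with a log2 fold change of -0.03 (SE 0.12, 95% interval -0.28 to 0.23, adjusted p = 0.871) whose sign turned with the normalization and with the libraries used. At its level 91.0% of genes had a lower log2 fold change. The log2 ratio of *Dclk1* to *Dcx* counts was -0.89 ± 0.11 in control and -0.66 ± 0.16 in libraries labelled Sox9, a difference of 0.23 (exact permutation test, p = 0.114, adjusted p = 0.214), with overlapping groups.

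*Cdk5* (chr5:24418241-24423530), the kinase that phosphorylates doublecortin, DAB1 and other migration proteins, was at 123, 103 and 108 CPM in control libraries and at 109, 106, 118 and 125 CPM in those labelled Sox9. The groups overlapped, with a log2 fold change of 0.05 (SE 0.12, 95% interval -0.21 to 0.30, adjusted p = 0.799) that fell below 0 with DESeq2 and without the filter on low counts. *Cdk5r1* (chr11:80477023-80481184), encoding its activator p35, was at 136, 112 and 119.7 CPM in control libraries and at 88.0, 121, 110.4 and 95.8 CPM in those labelled Sox9. Here Sox9 1, 3 and 4 lay below every control library and Sox9 2 within their range. The log2 fold change was -0.24 (SE 0.13, 95% interval -0.52 to 0.048, adjusted p = 0.187). It became -0.0032 with cyclic loess and limma-trend, -0.097 at 10 or more counts in every library, and -0.14 without Sox9 1 or without Sox9 4. The log2 ratio of activator to kinase counts was nearly the same in the control libraries (0.15, 0.13 and 0.15) and scattered in those labelled Sox9 (-0.31, 0.19, -0.10 and -0.38), a difference of -0.29 between means (exact permutation test, p = 0.143, adjusted p = 0.214).

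*Pafah1b1* (chr11:74673949-74724670), encoding LIS1, a regulator of the dynein motor that pulls the nucleus during migration, was at 83.0, 85.6 and 78.3 CPM in control libraries and at 83.5, 83.5, 76.9 and 69.6 CPM in those labelled Sox9. The groups overlapped, and the log2 fold change was -0.07 (SE 0.12, 95% interval -0.32 to 0.19, adjusted p = 0.699), with a sign that turned under cyclic loess normalization. A pseudogene copy, *Pafah1b1-ps1*, had 1 to 31 counts per library, against 332 to 985 for *Pafah1b1*.

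*Rnd2* (ENSMUSG00000001313, chr11:101464999-101471853, plus strand) encodes an atypical small GTPase that acts downstream of the proneural factor Neurogenin2 when multipolar neurons start to migrate. Its raw counts were 2028, 2282 and 1964 in control libraries and 957, 1413, 659 and 509 in libraries labelled Sox9 1 to 4, that is 194, 198 and 199.8 CPM against 131, 134, 73.7 and 107 CPM. The 3 control libraries were close to each other and all 4 libraries labelled Sox9 were lower, with Sox9 3 the lowest. The mean fell from 197 ± 3.09 CPM (SD, n = 3) to 111 ± 27.9 CPM (SD, n = 4), 1.77-fold, with a log2 fold change of -0.82 (SE 0.17, 95% interval -1.18 to -0.47, adjusted p = 0.00299). At its expression level, with an average log2 CPM of 6 to 8, 8.15% of 2491 genes were called lower and 1.61% had a lower log2 fold change. The call was lost when Sox9 4 was left out (log2 fold change -0.75, adjusted p = 0.0106). It was also lost at 10 or more counts in every library (-0.69, adjusted p = 0.0103) and with cyclic loess and limma-trend (-0.62, adjusted p = 0.0295).

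Several progenitor markers fell in the same libraries as *Rnd2*. Of 6 intermediate progenitor markers, *Eomes* and *Btg2* were called lower, *Eomes* from 37.5 to 7.86 CPM (log2 fold change -2.25, adjusted p = 4.87e-05) and *Btg2* from 95.04 to 54.4 CPM (log2 fold change -0.81, adjusted p = 0.00153). The other 4 were not called. *Neurog1* had a log2 fold change above 0 (1.15, adjusted p = 0.138), *Neurog2* and *Gadd45g* had -0.43 each, and *Insm1* had -0.05. Of 8 radial glia markers, *Pax6*, *Vim*, *Fabp7* and *Slc1a3* were called lower, and the sum of the 8 was 551 to 1071 CPM in control libraries and 263 to 403 CPM in those labelled Sox9. Over all genes tested 3.43% were called lower, and 8.15% of those with an average log2 CPM of 6 to 8. No marker of either list was at 0 in all libraries. The part of these cells in the *Rnd2* difference was not tested. *Vat1*, on the opposite strand, overlaps the first part of *Rnd2* in the annotation and was at 7.16 ± 1.77 and 7.52 ± 1.83 CPM (adjusted p = 0.838), and whether the counting used strand is not given in the sources used here.

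**Figure D3:**
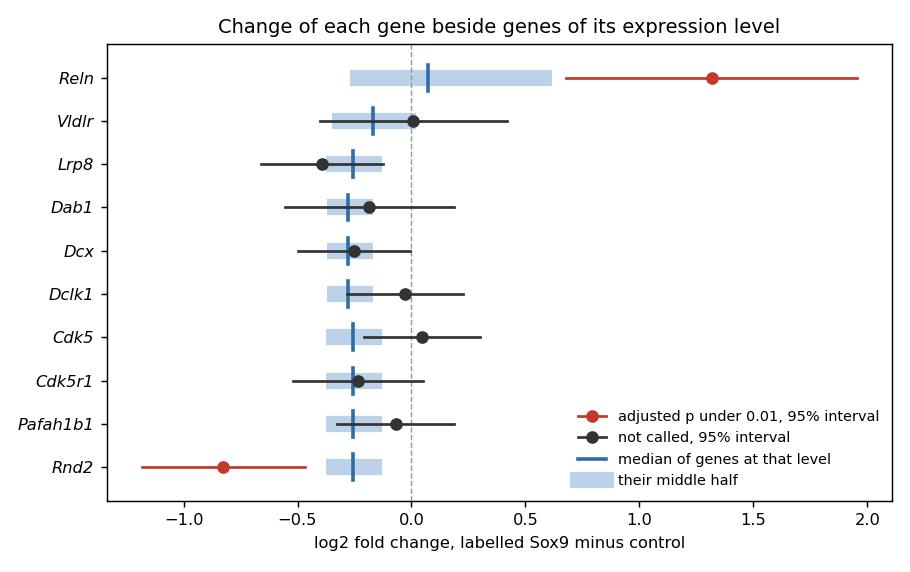
Log2 fold change of each of the 10 genes, libraries labelled Sox9 minus control, with its 95% interval (horizontal axis, log2 scale). Red points were called at an adjusted p under 0.01; the blue tick and bar give the median and the interquartile range over all genes of the same expression level. The whole intervals of *Reln* and *Rnd2* lie outside their bars, the points of *Dclk1*, *Cdk5*, *Pafah1b1* and *Lrp8* lie outside theirs with intervals that reach into them, and the *Dcx* point at -0.25 lies beside its tick at -0.28.

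The median log2 fold change was 1.37 for genes with an average log2 CPM under 2 and fell with expression level to -0.28 for those of 8 or more. Of the 10 migration genes, 8 lay above the median of their own level, *Lrp8* and *Rnd2* being the exceptions. The distance was 1.25 for *Reln* and -0.57 for *Rnd2*, and between -0.14 and 0.30 for the other 8. A log2 fold change slightly below 0 in *Dcx*, *Dab1* or *Cdk5r1* lay within 0.10 of the median for genes as abundant.

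Between genes, levels were compared in CPM per kilobase of exon, which takes coverage along the transcript to be even. The scale also takes all reads to come from exons, whereas the treatment of introns in counting is not given. This bears on long genes such as *Dab1*, with 7.91 kb of exon in a span of 1125 kb. In control libraries *Rnd2* was highest at 99.1 ± 1.55 (SD, n = 3), followed by *Dab1* at 67.5 ± 13.3, *Cdk5* at 51.2 ± 4.84 and *Dcx* at 46.6 ± 2.31, and among these the ranges of *Dab1* and *Cdk5* and of *Cdk5* and *Dcx* overlapped. Below them came *Cdk5r1* at 29.4, *Dclk1* at 20.9, *Lrp8* at 15.8 and *Pafah1b1* at 8.55, each range separate from its neighbours. The ligand and 1 receptor were far lower, with *Vldlr* at 2.12 and *Reln* at 0.215. In libraries labelled Sox9 *Dab1* was first at 59.3 and *Rnd2* second at 56.0, with overlapping ranges, and the ranges of *Rnd2* and *Cdk5* and of *Cdk5r1* and *Dclk1* overlapped as well. The rest of the order was as in control.

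The deposited FPKM gave another order, since the length behind them was the whole span of the gene, introns included, for all 10 genes (0.999 to 1.01 of the span). *Dab1*, with a span of 1125 kb and 7.91 kb of exon, was second of 10 per kilobase of exon and ninth by FPKM, where its control mean was 0.433. *Cdk5r1*, whose span is all exon, was first by FPKM at 26.8, ahead of *Rnd2* at 26.2. *Reln* was last on both scales, at 0.010 FPKM in control and 0.0293 in libraries labelled Sox9.

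Other genes of these pathways were read from the same test. Of 72 listed, 69 had enough reads, of which *Adamts5* and *Dcdc2a* were called higher and *Nde1*, *Cdk5rap3*, *Flna* and *Unc5d* lower, while 63 were not called. These 2 higher and 4 lower calls among 69 stand beside 11.3% and 3.43% over all genes tested. The median log2 fold change of the 69 was -0.13 against -0.0031 over all genes, and 21 of them had a value above 0. Most of the 69 had an average log2 CPM of 4 or more. At 4 to 6, 6 to 8 and 8 or more, the medians over all genes were -0.17, -0.25 and -0.28. *Mylip*, *Dclk3* and *Cdk5r2* had too few reads. *Adamts5* and *Nde1* were called in all 17 alternatives tried. *Flna* was not called with cyclic loess (log2 fold change -0.59, adjusted p = 0.0150).

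None of the 18 genes that pass the reelin signal on inside the cell, such as the kinase *Fyn*, the Crk adaptors, the Rap1 GTPases and the adhesion proteins they act on, was called, and their median was -0.08. The nearest were the kinases *Gsk3b* (log2 fold change -0.33, adjusted p = 0.0342) and *Limk1* (1.06, adjusted p = 0.0368) and the PI3 kinase subunit *Pik3r1* (0.61, adjusted p = 0.0427). Among 8 genes of reelin cleavage and of receptor and DAB1 turnover, *Adamts5*, a secreted protease of proteoglycans, rose from 7.01 ± 1.24 to 34.5 ± 13.4 CPM (log2 fold change 2.29, SE 0.30, adjusted p = 2.25e-04), all libraries labelled Sox9 being above all control libraries. *Cul5* and *Rnf7*, subunits of the ubiquitin ligase that removes phosphorylated DAB1, had log2 fold changes of -0.41 and -0.43 (adjusted p = 0.0184 and 0.0206) and were not called.

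Of 14 genes of the LIS1 and dynein group, *Nde1*, a LIS1 partner needed in dividing progenitors, fell from 61.2 ± 17.9 to 21.1 ± 3.49 CPM (log2 fold change -1.54, SE 0.20, adjusted p = 2.17e-04). *Dync1i2* and *Ywhae*, a dynein chain and the adaptor 14-3-3 epsilon, had values of -0.29 each and were not called. Among 8 genes of the doublecortin family, tubulins and microtubule proteins, *Dcdc2a*, a doublecortin-domain protein of cilia, rose from 0.432 ± 0.158 to 1.99 ± 0.843 CPM (log2 fold change 2.16, SE 0.54, adjusted p = 0.00870), on at most 7 counts in a control library and 23 in one labelled Sox9. Its call was lost without any 1 of the control libraries and without Sox9 1 or Sox9 3 (adjusted p 0.0174 to 0.0321), with DESeq2 (adjusted p = 0.0108) and with either replicate block (adjusted p = 0.0441 and 0.0210). With cyclic loess the log2 fold change was 0.39 (adjusted p = 0.579). *Stmn1*, a tubulin-binding protein, had a log2 fold change of -0.23 (adjusted p = 0.0956), and the tubulin *Tubb2b* one of 0.16 (adjusted p = 0.418).

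Of 5 genes around CDK5, *Cdk5rap3*, which binds p35, fell from 272 ± 9.33 to 201 ± 7.06 CPM (log2 fold change -0.44, SE 0.10, adjusted p = 0.00628), a call lost without any 1 of the 7 libraries (adjusted p 0.0133 to 0.0391). It was also lost with cyclic loess (-0.18, adjusted p = 0.218), at 10 or more counts in every library (-0.30, adjusted p = 0.0599), with protein-coding genes alone (adjusted p = 0.0101) and with either replicate block (adjusted p = 0.0190 and 0.0210). The cell cycle inhibitor *Cdkn1b*, a CDK5 substrate, was at -0.52 (adjusted p = 0.0193), and *Ptk2*, encoding focal adhesion kinase, was at -0.35 (adjusted p = 0.0375), neither being called. Of 16 genes of small GTPases and the switch from multipolar to bipolar shape, *Flna*, the actin crosslinker filamin A, fell from 156 ± 15.3 to 88.2 ± 14.6 CPM (log2 fold change -0.82, SE 0.14, adjusted p = 0.00107). *Unc5d*, a netrin receptor of multipolar cells, fell from 98.4 ± 16.1 to 46.4 ± 15.4 CPM (log2 fold change -1.08, SE 0.22, adjusted p = 0.00333), and was not called without control 2, control 4 or Sox9 4 (adjusted p 0.0153, 0.0132 and 0.0125), nor with cyclic loess (adjusted p = 0.0299) or at 10 or more counts in every library (adjusted p = 0.0127). *Neurod1*, a factor of newborn neurons, was at -0.71 (adjusted p = 0.0136). The group's median was -0.26, close to that of all genes with an average log2 CPM of 6 to 8.

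**Figure D4:**
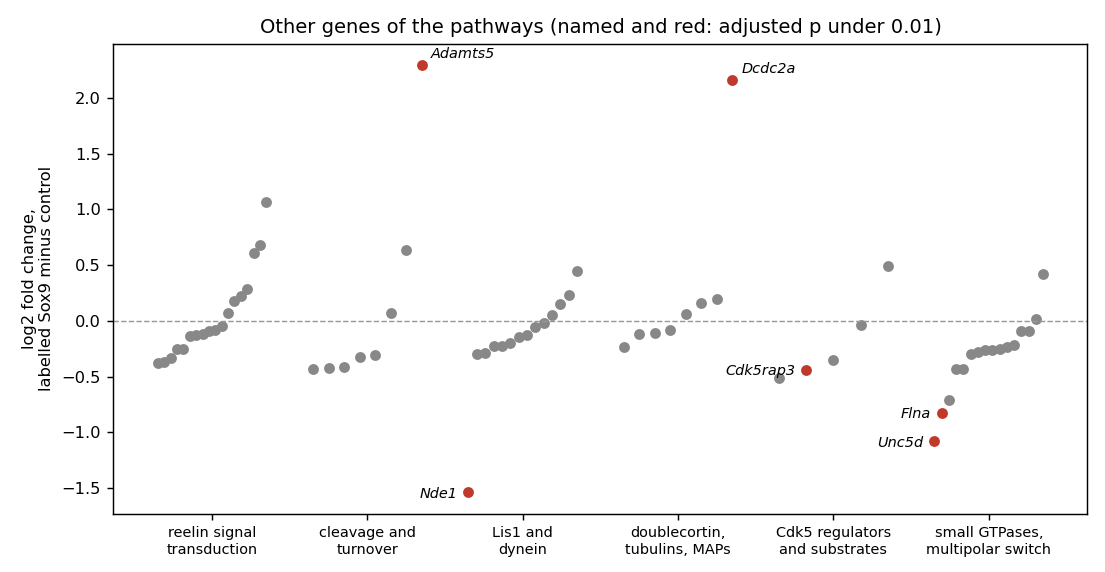
Log2 fold change (vertical axis, libraries labelled Sox9 minus control) of the 69 tested genes in 6 pathway groups, sorted within each group. Each point is a gene, and red named points had an adjusted p under 0.01. *Adamts5* at 2.29 and *Dcdc2a* at 2.16 stand above the rest and *Nde1* at -1.54 below, while no gene of reelin signal transduction is red.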

How the data were processed

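High RFP cells had been sorted by the authors from 3 control libraries and 4 libraries labelled Sox9, and groups follow the sample titles. The authors demultiplexed with bcl2fastq 2.17.1.14 (submitters' processing notes), trimmed adapters with cutadapt and aligned reads to mm10/GRCm38 with STAR 2.5.2b, while the program that counted reads, its use of strand and its treatment of introns are not given in the sources used here. cDNA was primed with poly-dT and amplified by PCR without molecular identifiers. The deposited count table holds unscaled whole-number counts by Ensembl identifier. The deposited FPKM were divided by the gene span. The genes and lists were chosen with earlier results of these data known.

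Tests used edgeR 4.0.16 under R 4.3.3 (TMM, filterByExpr, quasi-likelihood, two-sided, no covariate) and adjusted by the Benjamini-Hochberg method over 16522 genes. DESeq2 1.42.0 and limma 3.58.1 served as alternatives. Standard errors are the absolute log2 fold change divided by the square root of F. CPM use TMM-scaled library sizes. Ratios of 2 genes had 0.5 added to each count and were compared by exact permutation over 35 splits. Exonic lengths and coordinates came from GENCODE M21, as the union of exons. Gene lists covered 72 pathway genes, markers of 12 cell types and 1374 chemoreceptor genes. Named genes were all 10 members, called genes, those with the 3 smallest p-values of each pathway group and single markers of the cell type lists. No pair of libraries of the same group agreed within sampling noise (chi-square per degree of freedom of 6.63 or more). Scripts were tested on simulated counts. Summaries used Python 3.11.15 with pandas 2.3.3, numpy 2.4.6, scipy 1.17.1 and matplotlib 3.10.9. *Reln* rested on 44 to 126 counts per library, and how far this limited precision beside the spread between libraries was not tested.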

Additional observations from a re-analysis of the deposited data

How the results depend on the processing

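Of the 10 migration genes, 1 was called higher and 1 lower, and of the pathway genes 2 higher and 4 lower. These counts became 1 and 2 with 1 and 11 under DESeq2, 0 and 0 with 1 and 1 under cyclic loess with limma-trend, 1 and 2 with 2 and 10 without a filter, 1 and 0 with 1 and 2 at 10 or more counts in every library, and 1 and 2 with 4 and 13 at an adjusted p under 0.05. Leaving out 1 library gave 0 to 1 higher and 0 to 1 lower, with 1 to 2 and 2 to 3 pathway genes. DESeq2 size factors and a fit to protein-coding genes kept all 4 counts within 1.5 times, as did limma-trend on TMM-scaled values (added after the data were seen), with the same 4 counts. Correlations of same-numbered deviations were -0.036, 0.12 and -0.0048 by titles, and 0.017 for the third pair by descriptions. Differently numbered libraries gave -0.095 to 0.078. With so few libraries, these values cannot decide whether the replicate numbers pair the libraries. With a replicate block by titles 0 and 1 genes were called, with 1 and 3 pathway genes, and by descriptions 1 and 1, with 1 and 5. Over all genes, 1862 higher and 567 lower calls became 2074 and 1421 with DESeq2, 363 and 284 with cyclic loess and limma-trend, 2661 and 1452 without a filter, 638 and 204 at 10 or more counts, 3616 and 1787 at 0.05, and 400 and 218 or 1034 and 353 with the blocks. Without 1 library they ranged from 827 to 1590 and from 208 to 475.

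*Reln* kept a log2 fold change of 1.138 to 1.61 over 17 alternatives (adjusted p 3.81e-04 to 0.0280) and *Rnd2* of -0.91 to -0.62 (adjusted p 1.86e-08 to 0.0295). *Reln* was not called with cyclic loess (1.17, adjusted p = 0.0167) or the block by titles (1.25, adjusted p = 0.0280), nor *Rnd2* with cyclic loess (-0.62, adjusted p = 0.0295) or at 10 or more counts (-0.69, adjusted p = 0.0103). *Lrp8* was called without a filter (-0.48, adjusted p = 0.00743). The signs of small log2 fold changes turned, none of them called: with cyclic loess for *Dcx* (0.0097), *Dclk1* (0.23), *Dab1* (0.068) and *Pafah1b1* (0.16), at 10 or more counts for *Dclk1* (0.11) and *Pafah1b1* (0.070), with protein-coding genes for *Dclk1* (0.0092), with the replicate block by descriptions for *Dclk1* (0.036) and *Vldlr* (-0.037), with DESeq2 for *Vldlr* (-0.073) and *Cdk5* (-0.037), with its size factors for *Vldlr* (-0.016), and without a filter for *Vldlr* (-0.078) and *Cdk5* (-0.042). Without 1 library *Dab1* ranged from -0.34 to -0.028, *Dclk1* from -0.092 to 0.087, *Vldlr* from -0.14 to 0.17, *Cdk5* from -0.0025 to 0.11 and *Pafah1b1* from -0.085 to 0.040. The cause was not tested.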

Other observations

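The genes whose log2 CPM followed *Reln* most closely over the 7 libraries, among 13355 protein-coding genes, were *Habp2*, *Mlph*, *Nsmaf*, *Asap3* and *Caskin2* (Pearson r 0.987 to 0.990). All of them were low, between 0.615 and 6.97 CPM in control and between 3.20 and 11.8 CPM in libraries labelled Sox9, and the gene ranked 100 still had an r of 0.964. For *Dcx* they were *Atp5a1*, *Chm*, *Poc1a*, *Ylpm1* and *Hspd1* (r 0.976 to 0.991, 0.919 for the gene ranked 100). With 7 libraries that share their group differences and depths, these values describe likeness of pattern only.

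Other cell type markers were present at low levels. Most had an average log2 CPM under 2, where 22.7% of all genes were called higher. All 4 tested oligodendrocyte precursor markers were called higher, the sum of the 5 listed being 0.610 to 1.39 CPM in control libraries and 9.50 to 22.8 CPM in those labelled Sox9. Of 3 tested astrocyte markers 2 were called higher and 1 lower. Of 3 tested choroid plexus markers 2 were called higher, as were 1 of 5 mural and meningeal and 1 of 6 microglia markers, and neither of the erythroid markers tested was called.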
